A study of Mus musculus with 25 samples.

Results

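Mouse knockout islets labelled as treated with REG3B-Fc (KO_REG3B-Fc, 2 libraries) were compared with control islets labelled as treated with PBS (CTR_PBS, 2 libraries). These are 4 of the 25 samples of a mouse RNA-seq series on BAF60C, a subunit of the SWI/SNF chromatin remodelling complex encoded by Smarcd3, in type 2 diabetes. The comparison runs over all 17549 genes of the table that holds these libraries, and 2 KO_PBS libraries from the same table (knockout, given PBS) are shown beside it. Each library was a pool of islets from at least 3 mice. REG3B, the product of Reg3b, is a lectin that cells secrete, and the name REG3B-Fc reads as a fusion with the Fc tail of an antibody. For these groups the labels give neither the gene that KO refers to nor strain, sex, age, diet, dose, route or length of treatment. The series text describes a beta cell ablation made with Pdx1-cre, whose promoter is active in pancreatic progenitors as well as in beta cells, without saying whether KO is that line. KO_REG3B-Fc differs from CTR_PBS in both genotype and treatment. No group of the series is labelled as a control given REG3B-Fc, so the parts of knockout and treatment cannot be told apart.

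An islet is a small endocrine organ in which insulin-secreting beta cells sit among alpha cells (glucagon), delta cells (somatostatin), PP cells (pancreatic polypeptide) and rare epsilon cells (ghrelin). Around the islets lie acinar cells, which make digestive enzymes and most of the REG proteins of the pancreas, and isolated islets carry some acinar RNA with them. REG genes are known to rise in pancreatic injury and inflammation, in part through STAT3, a transcription factor switched on by cytokines of the interleukin 6 family.

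The insulin and acinar shares of RNA were close between the groups compared, while the share of the other islet hormones was not. Values are FPKM (fragments per kilobase, normalised to the reads of the library). Ins1 and Ins2 together made up 57.5 and 58.4% of summed FPKM in CTR_PBS, 58.1 and 57.7% in KO_REG3B-Fc, and 38.9 and 38.2% in KO_PBS. The acinar list took 19.9 and 19.7% in CTR_PBS, 17.1 and 17.3% in KO_REG3B-Fc, and 40.5 and 41.6% in KO_PBS. Gcg, Sst, Ppy, Pyy and Ghrl together took 0.769 and 0.755% in CTR_PBS and 1.69 and 1.76% in KO_REG3B-Fc, with 0.665 and 0.709% in KO_PBS. Smarcd3 was near the limit of the filter in every library, at 1.03 and 1.15 FPKM in CTR_PBS, 1.28 and 1.21 in KO_REG3B-Fc and 0.75 and 1.09 in KO_PBS (log2 change against CTR_PBS 0.10, adjusted p = 0.442), and FPKM of a whole gene does not show whether an exon was deleted. The KO_PBS libraries lay on another scale, with median gene ratios to the geometric mean library of 0.77 and 0.756 against 1.11 and 1.09 in CTR_PBS and 1.2 and 1.17 in KO_REG3B-Fc. Changes that involve KO_PBS are therefore given after median scaling, which divides each library by its median gene ratio.

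Of the 11789 genes that reached 1 FPKM in 2 or more libraries, 2315 (19.6%) differed between KO_REG3B-Fc and CTR_PBS, with 1977 (16.8%) higher and 338 (2.87%) lower in KO_REG3B-Fc. The test was limma on log2(FPKM + 1), two-sided, at a Benjamini-Hochberg adjusted p under 0.05, and every log2 change below is on that scale, which understates the change of genes near or under 1 FPKM. The median gene was higher by 0.0859 on the log2 scale. After median scaling the split was 645 higher (5.47%) and 625 lower (5.3%), in all 10.8% of genes, and 645 (5.47%) were higher and 335 (2.84%) lower on both scales. Leaving out any 1 of the 4 libraries gave 621 to 1053 higher and 155 to 240 lower genes, the fewest higher without CTR_PBS replicate 2 and the fewest lower without CTR_PBS replicate 1. The changes named below passed on both scales unless said otherwise. The libraries of the 2 groups did not overlap for 64.2% of genes (54.4% higher and 9.8% lower), so the absence of overlap alone says little. The p-values measure the spread between libraries only, which may be technical, and each group has 2 libraries. Whether the 2 libraries of a group are separate pools of mice is not stated.

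**Figure D1:**
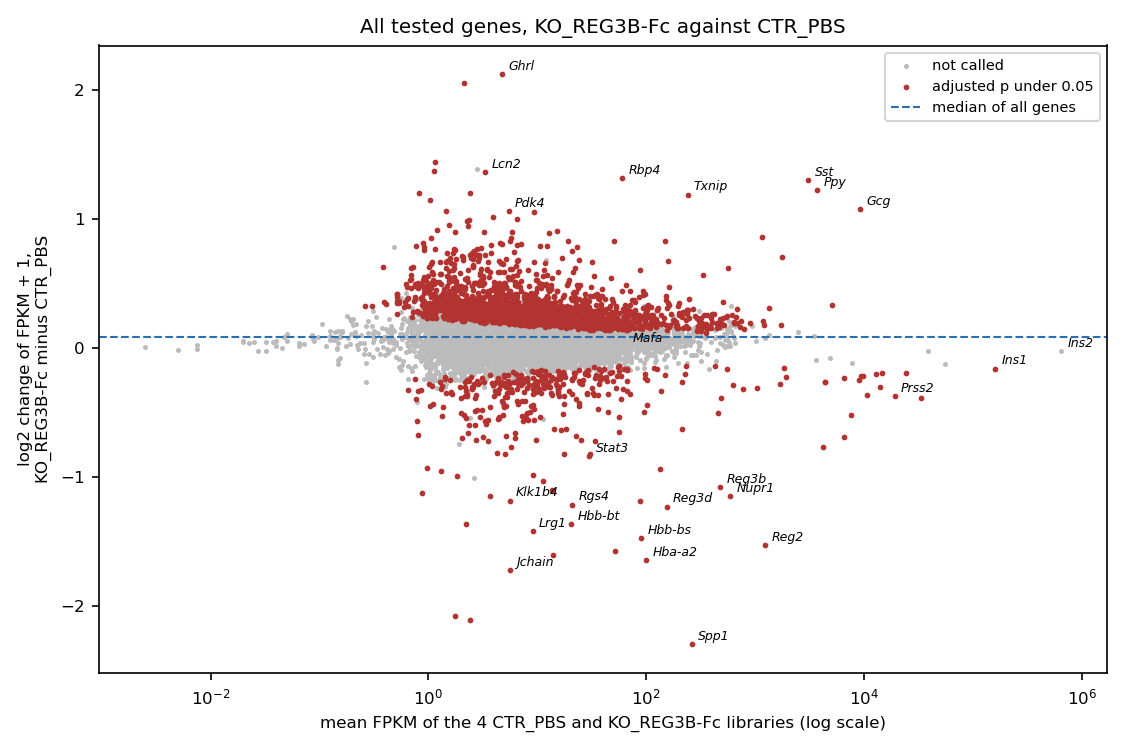
Change of each tested gene (log2 of FPKM + 1, KO_REG3B-Fc minus CTR_PBS, vertical axis) against its mean FPKM in the 4 libraries (log scale); red points have an adjusted p under 0.05 and the dashed line is the median gene, at 0.0859. Ghrl, Sst, Ppy, Gcg and Rbp4 stand at the top and Spp1, the hemoglobin genes and the REG genes at the bottom, with Ins2 near 0.

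The hormones of the islet cells other than beta cells were 1.81 (Pyy) to 7.23 (Ghrl) times as high in KO_REG3B-Fc as in CTR_PBS. Gcg, which encodes glucagon (chromosome 2, 62474530 to 62483653 in GRCm38.p6), measured 6037 and 5919 FPKM in CTR_PBS, 12331 and 12838 in KO_REG3B-Fc, and 4546 and 4779 in KO_PBS. Sst, the somatostatin gene of delta cells, measured 1767 and 1801, 4413 and 4371, and 1430 and 1580 FPKM in the same order. Ppy, which encodes pancreatic polypeptide, measured 2134 and 2329, 5062 and 5343, and 1825 and 2049 FPKM. For all 3 hormones both KO_REG3B-Fc libraries lay above every other library, and the CTR_PBS and KO_PBS values were within 1.5 times of each other. The log2 change against CTR_PBS was 1.07 (SE 0.042, adjusted p = 6.61e-07) for Gcg, 1.30 (SE 0.049, adjusted p = 6.5e-07) for Sst and 1.22 (SE 0.062, adjusted p = 3.85e-06) for Ppy. Ghrl, the ghrelin gene of epsilon cells, rose from 1.18 and 1.15 FPKM to 8.59 and 8.25 FPKM (log2 change 2.12, SE 0.08, adjusted p = 6.5e-07), with KO_PBS between them at 2.11 and 1.66. Rbp4, a retinol carrier that marks delta cells among islet cells, rose from 32.7 and 35.8 to 82.7 and 90.5 FPKM (log2 change 1.31, adjusted p = 1.64e-06). Pyy, which encodes peptide YY, rose by 0.86 and Npy, which encodes neuropeptide Y, by 1.01 on the log2 scale.

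The list of markers for these cells rose together. Of its 15 genes 14 were tested, and 12 were higher and 0 lower on either scale. Across all genes 16.8% were higher, and 5.47% after median scaling. The median log2 change of the list was 0.75 (0.65 after median scaling) beside 0.0859 (-0.00229) for all genes. Among the 12 higher members were transcription factors of alpha cells: Irx1 rose by 0.72 and Irx2 by 0.78. Hhex, the transcription factor of delta cells, rose from 2.65 and 2.47 FPKM in CTR_PBS to 4.86 and 4.98 FPKM in KO_REG3B-Fc (log2 change 0.73, adjusted p = 0.000683), and was at 4.3 and 3.4 in KO_PBS. Gc, a vitamin D carrier of alpha cells (0.08, adjusted p = 0.179), and Slc38a5, an amino acid transporter (0.07, adjusted p = 0.516), did not pass. Ghsr, the ghrelin receptor gene, was below the filter at 0.32 to 0.38 FPKM in CTR_PBS and 0.61 to 0.71 in KO_REG3B-Fc. In bulk RNA more cells of a type and more RNA per cell cannot be told apart.

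Set against insulin, glucagon transcript stood at 7.5 and 7.04 FPKM per 1000 FPKM of Ins1 plus Ins2 in CTR_PBS, 15.4 and 16.3 in KO_REG3B-Fc and 9.18 and 9.81 in KO_PBS. The same ratio for Sst was 2.19 and 2.14, 5.51 and 5.55, and 2.89 and 3.25. On this measure KO_PBS lay between the other groups, closer to CTR_PBS. After median scaling the log2 change of KO_PBS against CTR_PBS was 0.17 for Gcg, 0.28 for Sst and 0.32 for Ppy, and that of KO_REG3B-Fc against KO_PBS was 0.80, 0.91 and 0.79. All 6 values passed the threshold, in contrasts where 24.6% and 20.2% of all genes were higher after median scaling, and both contrasts share libraries with the main one.

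**Figure D2:**
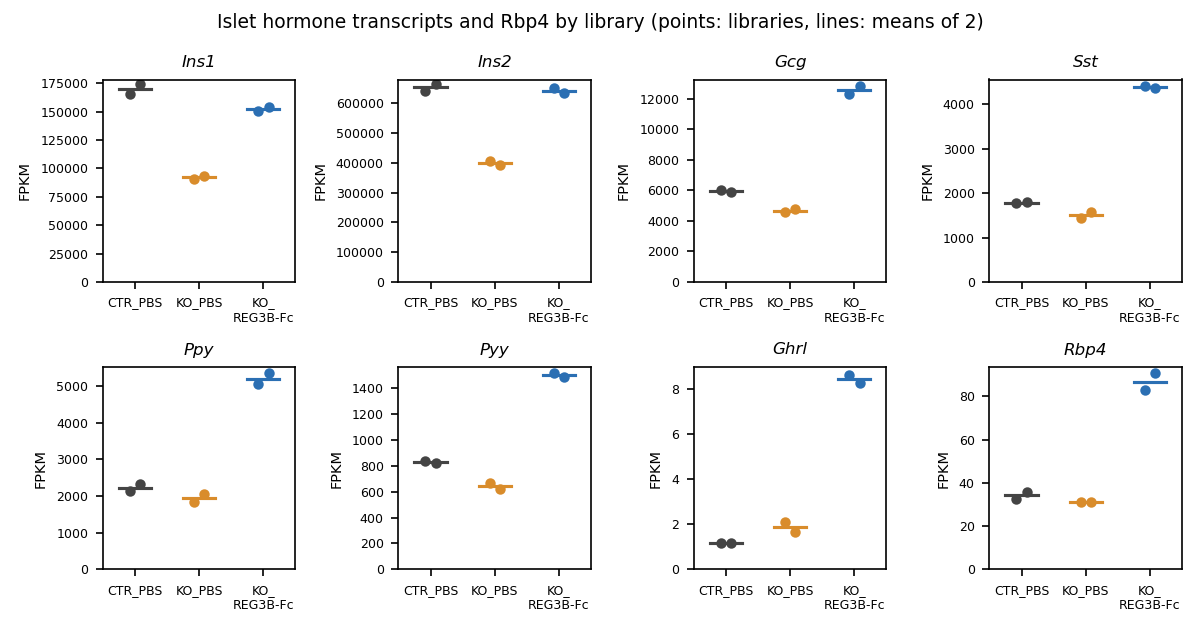
FPKM of the insulin genes, the other islet hormone genes and Rbp4 in each library, with points for libraries and lines for the means of 2. Both KO_REG3B-Fc libraries stand above all others for every gene but Ins1 and Ins2, where they lie near CTR_PBS and KO_PBS is lowest.

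Beta cell genes as a group lay near the control level. Ins2 measured 639898 and 666118 FPKM in CTR_PBS and 650818 and 634467 FPKM in KO_REG3B-Fc (log2 change -0.02, SE 0.052, adjusted p = 0.781). Ins1 measured 165526 and 174050 against 150251 and 153590 FPKM (log2 change -0.16, adjusted p = 0.0452), a call that was lost after median scaling (adjusted p = 0.0505) and without any 1 of the 4 libraries. The Ins1 and Ins2 transcripts are close copies, and how the authors' counting split their reads is not given. Of 28 beta cell identity genes 10 were higher and 4 lower, with a median of 0.05, and after median scaling 4 were higher and 3 lower, with a median of -0.05. The shares over all genes were 16.8% higher and 2.87% lower, and 5.47% and 5.3% after median scaling. Slc2a2, the glucose transporter GLUT2, rose from 75.8 and 73.6 to 99.1 and 97.9 FPKM (log2 change 0.39, adjusted p = 0.000297). The prohormone convertases Pcsk1 and Pcsk2, which cut proinsulin and proglucagon, rose by 0.29 and 0.30. The 3 members lower on both scales were G6pc2, the islet glucose-6-phosphatase (-0.22), Neurod1, a transcription factor (-0.18), and Ucn3, a peptide of mature beta cells (-0.14). The factors Pdx1 (-0.02, adjusted p = 0.752) and Nkx6-1 (-0.02, adjusted p = 0.823) did not pass.

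Genes of the secretory granule, which all islet hormone cells share, were more often higher. Of 23 tested exocytosis genes 12 were higher and 0 lower, and after median scaling 7 were higher and 1 lower, with medians of 0.17 and 0.06. Of all genes 16.8% were higher and 2.87% lower as deposited, and 5.47% and 5.3% after median scaling. Chgb (chromogranin B) rose from 433 and 460 to 665 and 711 FPKM, with KO_PBS at 505 and 449 (log2 change 0.62, adjusted p = 0.000232). After median scaling Chgb was also higher in KO_PBS than in CTR_PBS (0.62, adjusted p = 0.000104). On that scale KO_REG3B-Fc against KO_PBS did not pass (-0.10, adjusted p = 0.225). Chga (chromogranin A) rose by 0.33 and the granule peptide precursor Vgf by 0.49. Snap25, a membrane fusion protein, rose by 0.33, and Ptprn, a membrane protein of dense core granules, by 0.31. The share of these changes that goes with the higher glucagon, somatostatin and pancreatic polypeptide transcripts was not tested.

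Transcripts of the REG family, the family of the protein that was given, were lower in KO_REG3B-Fc than in CTR_PBS and lower still beside KO_PBS. All 6 measured members lie in 1 cluster on chromosome 6 (78370885 to 78468874), and 6 of 6 fell on either scale, with a median of -1.13 (-1.23 after median scaling). In the comparison with CTR_PBS 2.87% of all genes were lower, and 5.3% after median scaling. Reg3b measured 667 and 634 FPKM in CTR_PBS and fell to 304 and 312 FPKM in KO_REG3B-Fc, while KO_PBS stood at 1227 and 1181 (log2 change against CTR_PBS -1.08, SE 0.041, adjusted p = 6.5e-07). Reg2 fell from 1888 and 1791 to 649 and 625 FPKM, with KO_PBS at 2244 and 1980 (-1.53, SE 0.058, adjusted p = 6.5e-07). The KO_REG3B-Fc libraries were the lowest of the table for every member, and the KO_PBS libraries were the highest. Reg3d fell by 1.23 on the log2 scale, Reg3g by 1.19, Reg1 by 0.77 and Reg3a by 0.44. After median scaling Reg3b was higher by 1.42 in KO_PBS than in CTR_PBS and its log2 change in KO_REG3B-Fc against KO_PBS was -2.60, where 24.7% of all genes were lower. REG genes resemble each other, so reads of close copies may be shared between them. A measured transcript of Reg3b does not show the amount of the protein given.

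The acinar list, whose cells make most REG transcripts, fell by less. Of its 30 genes 0 were higher and 19 lower, and 22 were lower after median scaling, with medians of -0.21 and -0.32. Among all genes 2.87% were lower, and 5.3% after median scaling. Its summed level was 278800 and 283200 FPKM in CTR_PBS and 235600 and 236000 in KO_REG3B-Fc, with KO_PBS at 515100 and 529800, the same order of groups as for Reg3b. Prss2, a trypsinogen, fell from 21125 and 22091 to 16560 and 16768 FPKM (log2 change -0.37, adjusted p = 0.000717). The largest falls were those of Sycn, a zymogen granule protein (-0.69), Ptf1a, a transcription factor of acinar cells (-0.69), and Prss3, another trypsinogen (-0.65). Amy2a5, pancreatic amylase, passed after median scaling alone (-0.23, adjusted p = 0.0414, against -0.12, adjusted p = 0.0659, as deposited). The part of acinar RNA in the REG values was not tested. Trypsinogen genes are close copies too, and their separate values are uncertain.

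Among genes linked to JAK-STAT signalling Stat3, Socs3 and Bcl3 fell, and Cish and Socs2 rose. Stat3 (chromosome 11, 100886806 to 100939594) fell from 39.4 and 38.5 FPKM in CTR_PBS to 21.6 and 21.2 in KO_REG3B-Fc, with KO_PBS at 20.0 and 19.7 (log2 change -0.84, SE 0.044, adjusted p = 4.66e-06). Both knockout groups were thus lower than CTR_PBS, and after median scaling Stat3 changed by -0.43 in KO_PBS against CTR_PBS (where 20% of all genes were lower) and by -0.50 in KO_REG3B-Fc against KO_PBS. Socs3, a feedback inhibitor induced by STAT3, fell from 9.43 and 8.78 to 6.27 and 5.43 FPKM (-0.56, adjusted p = 0.000903), and Bcl3, a nuclear cofactor of NF-kappa B, fell by 0.66. Cish and Socs2, feedback inhibitors known as targets of STAT5 downstream of prolactin and growth hormone receptors, rose by 0.81 and 0.74. Cish measured 5.11 and 4.68 FPKM in CTR_PBS against 9.99 and 8.67 in KO_REG3B-Fc, with KO_PBS at 5.14 and 5.19. After median scaling Cish was higher by 0.51 in KO_PBS than in CTR_PBS, and Socs2 by 0.22. In KO_REG3B-Fc against KO_PBS Cish then changed by 0.19 (adjusted p = 0.0409) and Socs2 by 0.42 (adjusted p = 0.000347). Of 12 tested members of the JAK-STAT3 and acute phase list 2 were higher and 3 lower on either scale. The count of higher members is near the 16.8% of all genes called higher as deposited. The other shares over all genes were 2.87% lower as deposited, and 5.47% higher and 5.3% lower after median scaling. The receptor and kinase genes Il6st (0.03, adjusted p = 0.74), Jak1 (0.11, adjusted p = 0.153) and Jak2 (0.08, adjusted p = 0.369) did not pass.

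**Figure D3:**
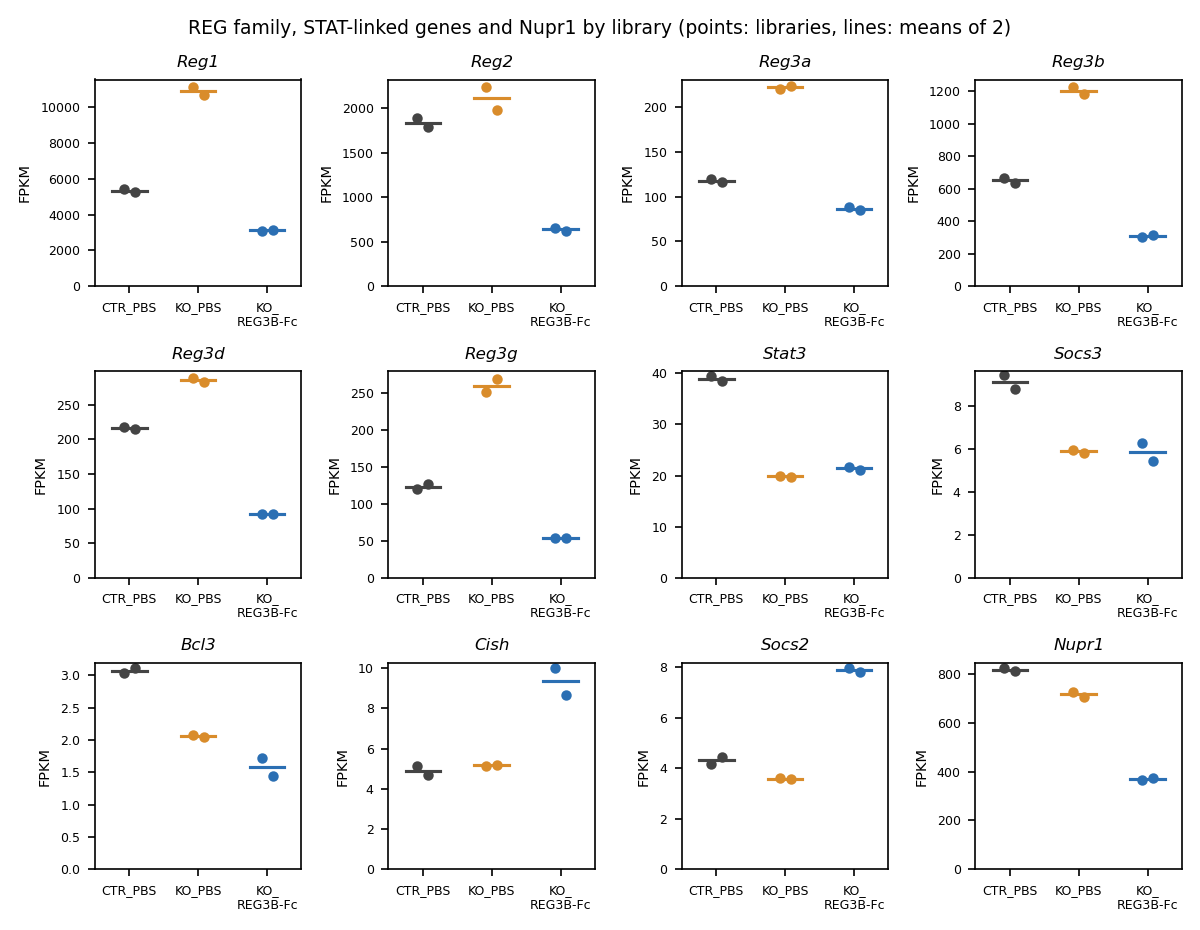
FPKM of the 6 REG genes, of Stat3, Socs3, Bcl3, Cish and Socs2, and of Nupr1 in each library, with points for libraries and lines for the means of 2. The REG genes are highest in KO_PBS and lowest in KO_REG3B-Fc, Stat3 is low in both knockout groups, and Cish and Socs2 are highest in KO_REG3B-Fc.

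The bases upstream of 3 REG genes and of Nupr1, a stress-induced gene that also fell, are shown so that genes that fell can be compared at a STAT recognition pattern. The pattern TTCNNNGAA, the palindrome bound by activated STAT dimers (the same on both strands), was searched in the 250 bases before each gene start in RefSeq, build GRCm38.p6, after the expression values were known. It occurs in 7.02% of 32851 promoters of that length. Each sequence runs 5′ to 3′ on the strand of the gene, with matches in capitals.
Reg3b (chr6:78370635-78370884, plus strand): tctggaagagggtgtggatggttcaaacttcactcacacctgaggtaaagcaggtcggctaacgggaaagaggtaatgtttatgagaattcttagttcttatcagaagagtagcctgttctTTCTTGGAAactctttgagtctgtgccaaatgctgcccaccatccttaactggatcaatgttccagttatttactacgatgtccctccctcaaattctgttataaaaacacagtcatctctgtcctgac
Reg3d (chr6:78378866-78379115, minus strand): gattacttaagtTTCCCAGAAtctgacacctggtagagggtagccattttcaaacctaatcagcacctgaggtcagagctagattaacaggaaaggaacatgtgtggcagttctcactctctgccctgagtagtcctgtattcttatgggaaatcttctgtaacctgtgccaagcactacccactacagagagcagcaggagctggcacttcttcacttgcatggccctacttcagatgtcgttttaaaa
Nupr1 (chr7:126625471-126625720, minus strand): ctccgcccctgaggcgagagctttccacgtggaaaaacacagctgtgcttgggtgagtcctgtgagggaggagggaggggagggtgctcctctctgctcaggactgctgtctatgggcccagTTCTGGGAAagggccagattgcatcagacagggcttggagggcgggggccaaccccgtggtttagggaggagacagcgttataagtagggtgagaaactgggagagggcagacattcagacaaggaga
Reg2 (chr6:78404905-78405154, plus strand): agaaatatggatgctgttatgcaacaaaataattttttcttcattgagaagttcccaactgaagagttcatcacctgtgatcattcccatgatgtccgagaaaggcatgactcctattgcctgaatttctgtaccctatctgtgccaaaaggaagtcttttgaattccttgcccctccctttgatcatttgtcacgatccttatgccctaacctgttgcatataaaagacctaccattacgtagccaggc
The match begins 129 bases before the start in Reg3b (TTCTTGGAA), 238 bases before it in Reg3d (TTCCCAGAA) and 128 bases before it in Nupr1 (TTCTGGGAA). Reg2, which fell most among the REG genes, has 0 matches in this window, as do Reg1, Reg3a and Reg3g. A match of letters is a description of the window and not a measured binding site.

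Several genes were low in both knockout groups. Spp1, which encodes the secreted phosphoprotein osteopontin (chromosome 5, 104435111 to 104441053), fell from 444 and 427 FPKM in CTR_PBS to 87.2 and 88.4 in KO_REG3B-Fc, with KO_PBS at 82.0 and 78.2. All 4 knockout libraries lay far under both controls, and CTR_PBS was 4.96 times KO_REG3B-Fc (log2 change -2.30, SE 0.042, adjusted p = 7.16e-09), the smallest adjusted p among the named genes. After median scaling Spp1 was also lower in KO_REG3B-Fc than in KO_PBS (-0.49, adjusted p = 1.91e-05). Rgs4, a regulator that shuts off G protein signalling, fell from 29.9 and 29.6 to 12.2 and 12.3 FPKM, with KO_PBS at 8.91 and 8.62 (-1.21, adjusted p = 6.5e-07). Hspb6, a small heat shock protein, was lowest in KO_PBS and in between in KO_REG3B-Fc, at 23.0 and 22.4 FPKM in CTR_PBS, 12.4 and 12.4 in KO_REG3B-Fc and 6.18 and 6.38 in KO_PBS (-0.82, adjusted p = 1.07e-05). Spp1 is also a duct cell marker. The duct keratin Krt19 did not pass, at 2.5 and 2.09 FPKM in CTR_PBS and 1.91 and 1.92 in KO_REG3B-Fc (-0.17, adjusted p = 0.124). Muc1, a membrane mucin, fell by 0.63, while Epcam, an adhesion protein of epithelial cells, rose by 0.26. The keratin Krt7 rose by 0.16 (adjusted p = 0.0366) on the deposited scale and did not pass after median scaling (adjusted p = 0.453) or without any 1 of the 4 libraries. Of 11 tested duct genes 2 were higher and 3 lower, with a median of -0.07, beside 16.8% higher and 2.87% lower of all genes.

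Other genes were high in both knockout groups, among them Txnip and Arrdc4, which glucose induces. Txnip, which encodes the thioredoxin inhibitor TXNIP, rose from 146 and 146 FPKM in CTR_PBS to 347 and 322 in KO_REG3B-Fc, with KO_PBS at 370 and 355 (log2 change 1.19, SE 0.046, adjusted p = 6.5e-07). Its relative Arrdc4 rose from 4.48 and 4.55 to 9.12 and 8.07 FPKM, with KO_PBS at 8.3 and 8.39 (0.80, adjusted p = 7.43e-05). Pdk4, a kinase that shuts down pyruvate dehydrogenase, rose from 3.27 and 3.1 to 7.64 and 7.8 FPKM, with KO_PBS at 7.64 and 7.39 (1.06, adjusted p = 4.64e-06). For all 3 both controls lay under every knockout library. After median scaling they were lower in KO_REG3B-Fc than in KO_PBS, with log2 changes of -0.75 for Txnip, -0.53 for Arrdc4 and -0.53 for Pdk4, all past the threshold. Of 9 tested genes on the list for glucose and its transcription factor ChREBP 6 were higher and 0 lower, and 4 were higher after median scaling. The share of all genes called higher was 16.8%, and 5.47% after median scaling. Lcn2, the iron-binding acute phase protein lipocalin 2, rose from 1.3 and 1.57 to 5.74 and 4.78 FPKM (1.36, adjusted p = 1.9e-05), with KO_PBS at 4.97 and 5.33.

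Zfp423, Cck and Gast were close to 0 in control islets and higher in both knockout groups. Zfp423, a zinc finger transcription factor of fat cell precursors, was at 0.1 and 0.1 FPKM in CTR_PBS and at 1.74 and 1.33 in KO_REG3B-Fc, with KO_PBS at 2.67 and 2.47 (log2 change 1.20, adjusted p = 4.05e-05). Cck, which encodes cholecystokinin, rose from 0.22 and 0.15 to 2.48 and 1.69 FPKM, with KO_PBS at 2.26 and 4.43 (1.37, adjusted p = 0.00227). Gast, which encodes gastrin, rose from 0.6 and 0.45 to 1.99 and 1.76 FPKM, with KO_PBS at 2.92 and 2.03 (0.92, adjusted p = 0.000971). Both controls lay under all 4 knockout libraries for each gene. Over all genes 16.8% were higher and 2.87% lower (5.47% and 5.3% after median scaling). Of 15 tested genes on the list of dedifferentiation markers and genes disallowed in beta cells 8 were higher and 5 lower, and 5 and 5 after median scaling. Among those that fell were Aldh1a3, a marker of dedifferentiated beta cells (-0.26), and the disallowed gene Ldha, a lactate dehydrogenase (-0.31). The Ldha call was lost without CTR_PBS replicate 1 (-0.19, adjusted p = 0.177) and without KO_REG3B-Fc replicate 2 (-0.23, adjusted p = 0.147).

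Another set differed strongly in KO_PBS and stood near the control level in KO_REG3B-Fc. These genes were picked as the 6 with the smallest change here among the 50 that differed most in KO_PBS, so their values are a description with no test. Mafa, a transcription factor of mature beta cells, measured 68.2 and 63.9 FPKM in CTR_PBS and 70.5 and 62.7 in KO_REG3B-Fc, with KO_PBS at 22.9 and 24.8. Gad1, the enzyme that makes GABA, measured 34.4 and 33.0 in CTR_PBS and 35.9 and 34.1 FPKM in KO_REG3B-Fc, with KO_PBS at 9.15 and 9.48. Atp2a2, the calcium pump SERCA2, measured 249 and 251 FPKM, then 264 and 258, with KO_PBS at 99.7 and 100.3. The ranges of CTR_PBS and KO_REG3B-Fc overlapped for Mafa and Gad1, and for Atp2a2 KO_REG3B-Fc was slightly above. After median scaling the log2 change of KO_PBS against CTR_PBS was -0.92 for Mafa, -1.26 for Gad1 and -0.79 for Atp2a2, and that of KO_REG3B-Fc against CTR_PBS was -0.09, -0.04 and -0.04. Try10, an acinar trypsinogen, went the other way in KO_PBS, with 188 and 183 FPKM in CTR_PBS, 185 and 182 in KO_REG3B-Fc and 502 and 506 in KO_PBS. Lrrc10b and Cd52, the latter a surface protein of lymphocytes, were the remaining genes.

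**Figure D4:**
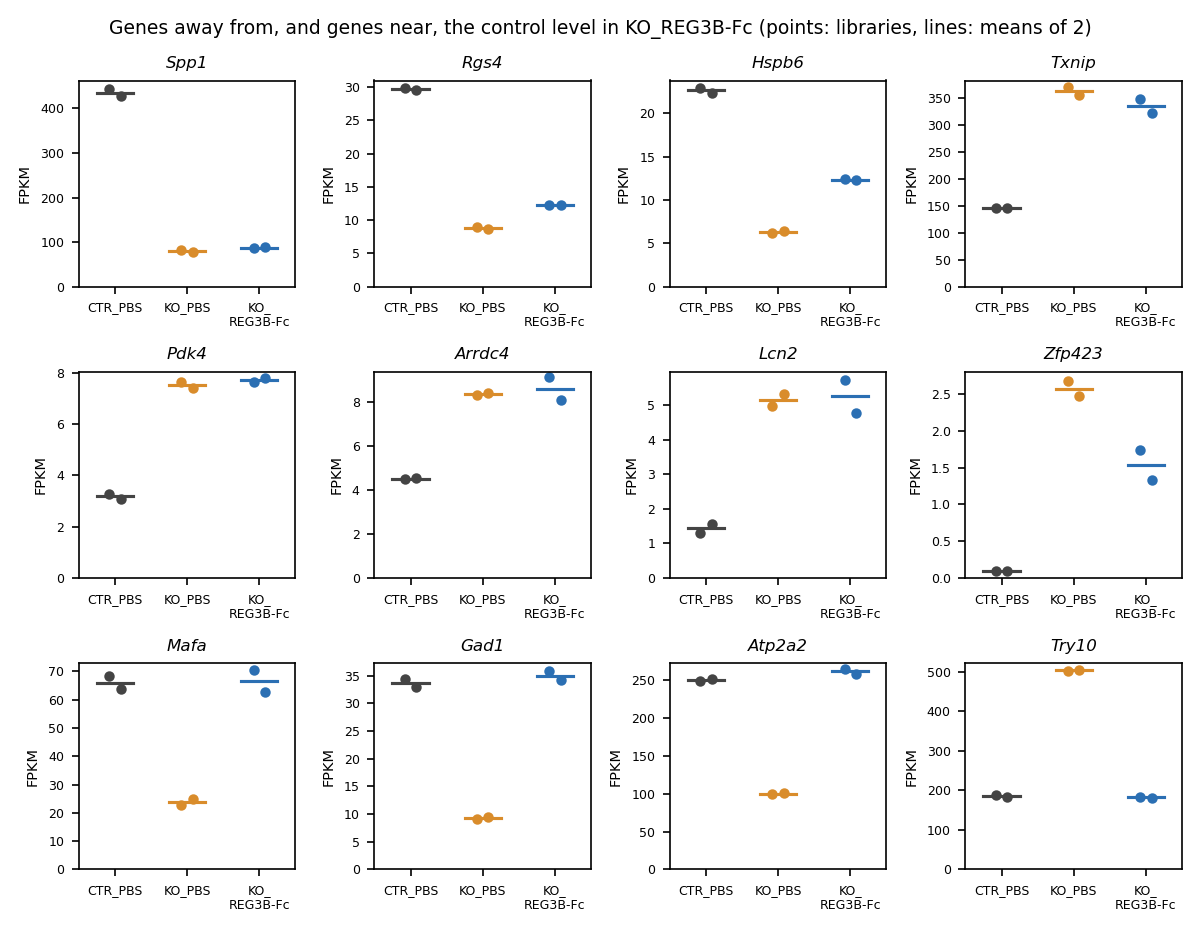
FPKM by library of genes away from the control level in both knockout groups (Spp1 to Zfp423) and of genes near it in KO_REG3B-Fc (Mafa to Try10), with points for libraries and lines for the means of 2. Spp1 is at 82.0 and 78.2 FPKM in KO_PBS and 87.2 and 88.4 in KO_REG3B-Fc, against 444 and 427 in CTR_PBS, whereas Mafa, Gad1 and Atp2a2 are lowest in KO_PBS.

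Nupr1 and Chac1, both genes of cellular stress, fell, and Cdkn1a and Gadd45b rose. Nupr1, a small chromatin protein induced in stressed pancreas, fell from 821 and 811 FPKM in CTR_PBS to 363 and 372 in KO_REG3B-Fc, with KO_PBS at 727 and 706 (log2 change -1.15, SE 0.037, adjusted p = 4.3e-07). Chac1, an enzyme that breaks down glutathione and is a target of the stress factor ATF4, fell from 43.7 and 41.9 to 26.7 and 24.6 FPKM (-0.72, adjusted p = 5.06e-05). Of 19 tested ATF4 and amino acid stress genes 2 were higher and 6 lower, and 2 and 11 after median scaling, with medians of -0.12 and -0.22, beside 16.8% higher and 2.87% lower of all genes (5.47% and 5.3% after median scaling). The other arm, the chaperones of the unfolded protein response, counted 12 higher and 0 lower of 22, and 4 and 2 after median scaling, led by Creld2, an endoplasmic reticulum chaperone (0.49, adjusted p = 8.37e-05). Cdkn1a, the cell cycle inhibitor p21, rose from 18.6 and 18.1 to 30.7 and 29.3 FPKM (0.68, adjusted p = 3.06e-05), and Gadd45b, a stress-induced growth arrest gene, rose by 0.75. After median scaling the change of KO_PBS against CTR_PBS was 0.72 for Cdkn1a, 1.01 for Gadd45b and 0.62 for Creld2. That of KO_REG3B-Fc against KO_PBS was -0.15, -0.36 and -0.23. The same changes were 0.34 and -1.59 for Nupr1, and -0.33 and -0.49 for Chac1. All these values passed the threshold. Among proliferation genes Top2a, a topoisomerase of dividing cells, rose from 0.38 and 0.35 FPKM in CTR_PBS to 0.99 and 1.05 in KO_REG3B-Fc, with KO_PBS at 2.04 and 1.78 (0.57, adjusted p = 0.00114). Of 18 tested proliferation genes 8 were higher and 0 lower, and 4 and 1 after median scaling.

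Transcripts of red blood cells and the plasma cell gene Jchain were lower. Hba-a2, an alpha globin gene, fell from 144 and 161 FPKM in CTR_PBS to 51.8 and 44.5 in KO_REG3B-Fc, with KO_PBS at 208 and 199 (log2 change -1.64, adjusted p = 1.75e-06). Of 5 tested red blood cell genes 5 were lower on either scale, with a median of -1.48. Beside them, 2.87% of all genes were lower, and 5.3% after median scaling. The summed share of the red blood cell list was 0.028 and 0.0275% in CTR_PBS and 0.00899 and 0.0104% in KO_REG3B-Fc. The alpha globin copies, like the beta globin copies, may share reads. Jchain, the joining chain of antibodies made by plasma cells, fell from 9.64 and 8.55 to 2.01 and 2.11 FPKM (-1.72, adjusted p = 6.5e-07), with KO_PBS at 15.6 and 14.7. Lrg1, a secreted acute phase glycoprotein, fell from 13.1 and 14.3 to 5.13 and 3.94 FPKM (-1.42, adjusted p = 2.08e-05), with KO_PBS at 15.8 and 16.5.

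B and T lymphocyte genes stayed low in both groups compared. Of 12 tested genes 1 was higher and 0 lower, and 0 passed after median scaling. For this and the other lists of this paragraph, 16.8% of all genes were higher and 2.87% lower (5.47% and 5.3% after median scaling). The summed level of the lymphocyte genes was 13.5 and 13.4 FPKM in CTR_PBS and 13.4 and 16.9 in KO_REG3B-Fc against 147 and 138 in KO_PBS. The B cell gene Ms4a1 (CD20) is listed at 0 in both CTR_PBS libraries and measured 0.02 and 0.06 FPKM in KO_REG3B-Fc and 5.53 and 5.39 in KO_PBS. Macrophage genes counted 7 higher and 0 lower of 15, and 3 and 0 after median scaling, with Lyz2, the lysozyme of myeloid cells, at 11.3 and 10.4 FPKM in CTR_PBS, 15.7 and 16.8 in KO_REG3B-Fc and 94.5 and 89.0 in KO_PBS (log2 change 0.54, adjusted p = 0.000349). Matrix genes of stellate cells counted 9 higher and 0 lower of 15, and 8 and 1 after median scaling. Col1a1, a collagen I chain, rose from 1.07 and 0.96 to 2.5 and 2.2 FPKM (0.73, adjusted p = 0.000312), with KO_PBS at 5.3 and 5.87, and Dcn, the matrix proteoglycan decorin, rose by 0.68. The part of these cells in other changes was not tested.

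**Figure D5:**
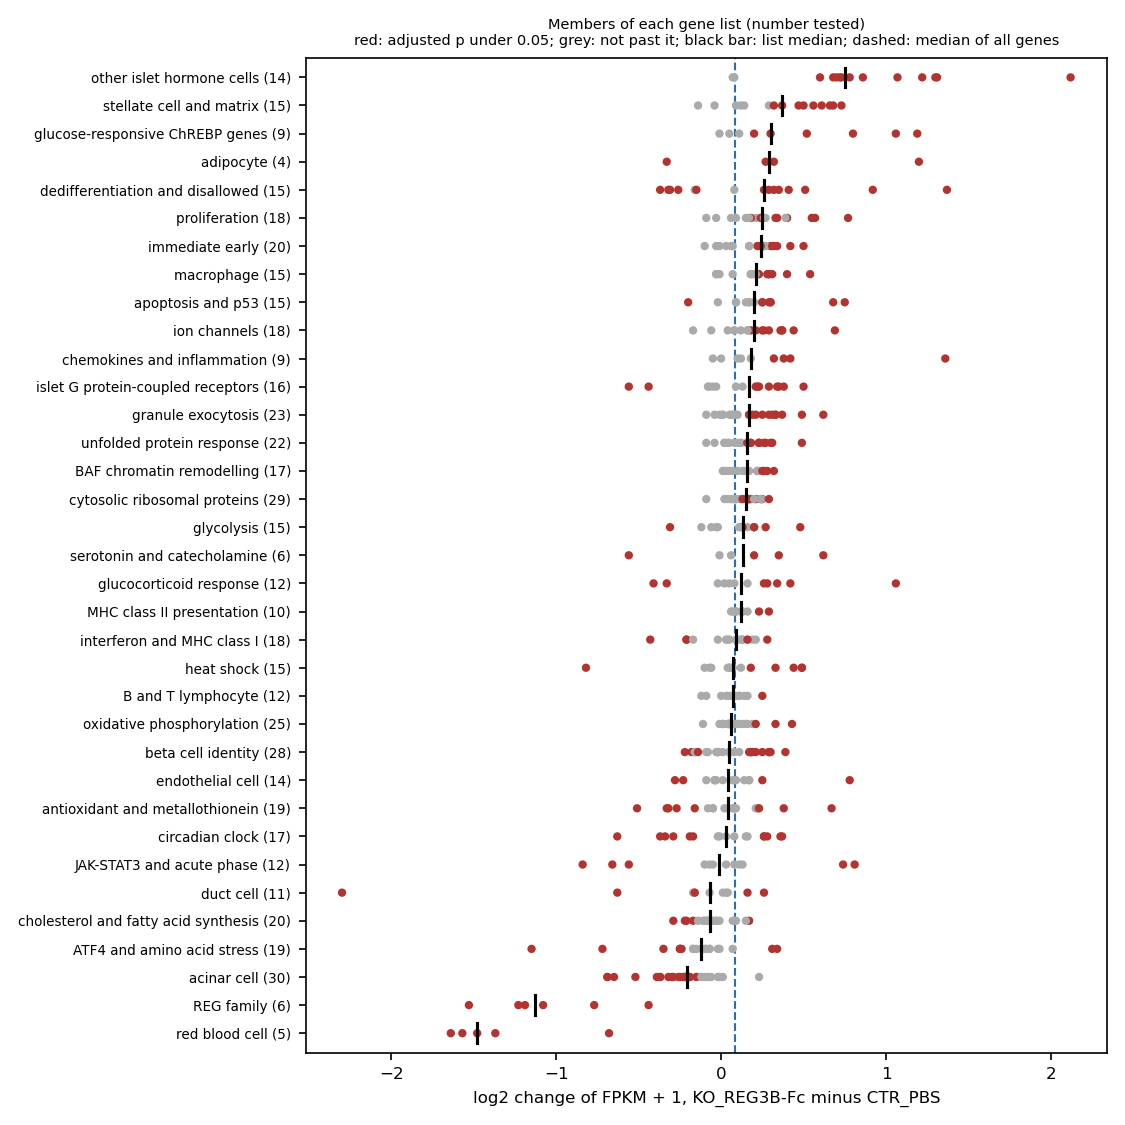
Log2 change (KO_REG3B-Fc minus CTR_PBS) of each tested member of the gene lists, with the number tested in brackets, red points for an adjusted p under 0.05, black bars for list medians and a dashed line for the median of all genes (0.0859). The markers of other islet hormone cells lie highest, with a median of 0.75, and the REG family (-1.13) and red blood cell genes (-1.48) lie lowest, while the beta cell list has its median at 0.05.

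The authors' deposited table holds no direct test of these groups but gives DESeq2 log2 fold changes for KO_PBS against CTR_PBS and for KO_REG3B-Fc against KO_PBS. Added gene by gene, the values of the authors' deposited table come to 0.96 for Gcg, 1.19 for Sst, 2.70 for Ghrl, -1.19 for Reg3b, -0.98 for Stat3, -2.43 for Spp1 and 1.07 for Txnip. For Mafa and Gad1, near the control level, the sums in the authors' deposited table are -0.11 and -0.08, where the changes here were 0.01 and 0.06 as deposited and -0.09 and -0.04 after median scaling. For Zfp423 the sum in the authors' deposited table is 3.94, where the pseudocount of 1 FPKM gives 1.20.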

How the data were processed

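Per the labels' protocols, libraries from pooled mouse islets were read from both ends on a BGISEQ-500. The authors deposited FPKM per gene for 6 libraries, with DESeq2 log2 fold changes, p-values and adjusted p-values (q-values) for 2 other comparisons, per the file headers. The submitters' processing notes name GRCm38.p6, and the aligner and counter are not given in the sources used here. Depth is unknown, so no counting interval was computed. Genes were taken by Entrez identifier: 17498 of 17549 matched RefSeq, and 23 symbols were restored.

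The fit used R 4.3.3 and limma 3.58.1, with moderated variances that follow a trend, on log2(FPKM + 1), with all 6 libraries of the 3 groups (3 residual degrees of freedom), no block, genes of at least 1 FPKM in at least 2 libraries, and Benjamini-Hochberg adjustment over all genes tested. It was tested on simulated data. No count model was used. Alternatives were no filter, at least 5 FPKM, a pseudocount of 0.1, median scaling, acinar and REG genes left out with the rest rescaled, only the 4 libraries compared, a replicate block, and leaving out each library.

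The comparison and the 37 gene lists were chosen with earlier results of these data known. Named genes were Smarcd3, Reg3b, Ins1, Ins2, Gcg and Prss2, and the 12 higher and 12 lower genes of largest change among called genes whose higher group averaged 5 FPKM or more and whose libraries did not overlap, predicted genes left out. To these were added up to 4 called members of each list (2 by smallest p where none passed), the 8 largest called changes among genes of at least 100 FPKM in both groups, and the 6 of at least 5 FPKM nearest control among the 50 that differed most in KO_PBS. Further genes, such as Reg1, Socs3, Irx2 and Krt19, were chosen from the lists after their values were seen, as was the promoter pattern. Some genes are not reported here.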

Additional observations from a re-analysis of the deposited data

How the results depend on the processing

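Of the 144 named genes past the threshold, 46 lost the call under at least 1 of the 11 alternatives, and 38 did so outside the leave-one-out fits. Median scaling took the call from 33 named genes, no filter from 29, and leaving out a library from 26 to 36. Genes higher numbered 1977, and 645 after median scaling; genes lower numbered 338, and 625 after median scaling. Leaving out 1 library gave 621 to 1053 higher and 155 to 240 lower genes, with fewer libraries in the fit. The median change of all genes, 0.0859, became 0.0598 with no filter, -0.00229 after median scaling and 0.072 to 0.1 without 1 library. The other alternatives kept both counts within 1.5 times. Signs turned in 7 named genes, none of them past the threshold. After median scaling the change was -0.04 for Atp2a2, -0.05 for Cd52, -0.04 for Gad1 and -0.09 for Mafa. Leaving out 1 library gave -0.3 to 0.37 for Cd52, -0.06 to 0.04 for Lrrc10b, -0.07 to 0.09 for Mafa, -0.04 to 0.0 for Try10 and -0.05 to 0.01 for Ins2. The cause was not tested. Replicate numbers did not pair the libraries: differences between replicates correlated at 0.0472 between CTR_PBS and KO_REG3B-Fc, 0.0243 and -0.0228 for the other pairs of groups. With the replicate block 1965 genes were higher and 345 lower. Depth is unknown, and genes near 1 FPKM carry the widest replicate spread, with a robust SD of the log2 ratio of 0.0944 and 0.0984 under 10 FPKM against 0.0517 and 0.0717 from 100 FPKM in CTR_PBS and KO_REG3B-Fc.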

Other observations

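Dbp, Nr1d1 and Ciart, genes of the circadian clock, were lower. Of 17 tested clock genes 5 were higher and 6 lower, and 1 and 6 after median scaling, beside 16.8% higher and 2.87% lower of all genes (5.47% and 5.3% after median scaling), so the higher count after scaling is near that of all genes. Dbp, an output factor of the clock, fell from 23.0 and 21.9 FPKM in CTR_PBS to 14.3 and 14.1 in KO_REG3B-Fc, with KO_PBS at 17.6 and 17.5 (log2 change -0.63, adjusted p = 5.43e-05). After median scaling Dbp was higher in KO_PBS than in CTR_PBS (0.17, adjusted p = 0.0116). Its change in KO_REG3B-Fc against KO_PBS was then -0.89. Nr1d1, which encodes the repressor REV-ERB alpha, fell by 0.34 and Ciart, another clock repressor, by 0.37. Per1, a core clock gene that hormones also induce, rose by 0.26. The hour at which islets were collected is not given in the labels, and its part in these values was not tested.

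Genes that neurons and endocrine cells switch on with activity were higher in part. Of 20 tested immediate early genes 11 were higher and 0 lower, and 6 and 0 after median scaling. As a background for the lists of this paragraph, 16.8% of all genes were higher and 2.87% lower (5.47% and 5.3% after median scaling). Npas4, a transcription factor induced by calcium entry, measured 0.72 and 0.68 FPKM in CTR_PBS and 1.52 and 1.3 in KO_REG3B-Fc (log2 change 0.50, adjusted p = 0.00291), and Dusp1, a phosphatase of MAP kinases, rose by 0.42. Ion channel genes counted 10 higher and 0 lower of 18, and 6 and 0 after median scaling, led by Kcnk3, the potassium channel TASK1, which rose from 1.74 and 1.73 to 3.49 and 3.31 FPKM (0.69, adjusted p = 0.000225). Of 16 tested islet G protein-coupled receptor genes 8 were higher and 2 lower, and 4 and 2 after median scaling. Gcgr, the glucagon receptor, rose by 0.50 and Gipr, the receptor of the incretin GIP, by 0.38, while Ffar2, a receptor of short chain fatty acids, fell by 0.56 and Gabbr2, a subunit of the GABA B receptor, by 0.44. After median scaling neither Ffar2 (0.18, adjusted p = 0.0679) nor Gabbr2 (0.06, adjusted p = 0.289) passed between KO_REG3B-Fc and KO_PBS.

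Of 19 tested antioxidant and metallothionein genes 3 were higher and 5 lower, and 2 and 6 after median scaling. Beside each list of this paragraph, 16.8% of all genes were higher and 2.87% lower (5.47% and 5.3% after median scaling). The count of higher antioxidant and metallothionein genes is thus near that of all genes as deposited. Mt1, a metallothionein that binds zinc, fell from 534 and 541 to 379 and 378 FPKM (log2 change -0.51, adjusted p = 3.02e-05), and Gpx3, a secreted glutathione peroxidase, rose from 125 and 118 to 200.1 and 188 FPKM (0.67, adjusted p = 7.43e-05). Arg1, which encodes arginase 1, rose from 5.52 and 5.93 to 13.9 and 12.1 FPKM (1.06, adjusted p = 2.81e-05). KO_PBS measured 6.0 and 5.55 FPKM for Arg1, and after median scaling it was higher than CTR_PBS by 0.47 on the log2 scale. On the deposited scale 10 of 29 ribosomal protein genes and 6 of 17 BAF remodelling subunits were higher, and the other members did not pass. After median scaling 0 of either list passed the threshold.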
